A study of Mus musculus with 6 samples.

Results

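Immediate early genes and heat shock chaperones were examined in sorted mouse parietal cells, which secrete gastric acid. The set holds 38 genes chosen by symbol as members of these classes, and all 38 were found among the 23284 genes of the deposited table. Of these, 37 reached at least 1 FPKM (mapped fragments scaled by transcript length and by library size) in at least 3 libraries and were among the 10644 genes tested. The untested gene was Dusp2. By role the set was divided into 9 AP-1 and related leucine zipper factors, 7 other inducible transcription factors, 6 feedback phosphatases and RNA decay factors, 8 growth arrest and other immediate early proteins, 6 heat shock chaperones and 2 matricellular proteins.

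There were 3 control libraries (genotype label Transgenic-Tom) and 3 noggin libraries (genotype label Transgenic-Tom-nog). Noggin, an extracellular antagonist of bone morphogenetic proteins (BMPs), was expressed from the H+/K+-Nog transgene. As the allele names give it, the H+/K+ ATPase promoter drives noggin and Cre, and this ATPase is the proton pump of parietal cells. According to the design text, the noggin mice carried H+/K+-Cre, H+/K+-Nog and Rosa26-tdTom together, and cells with the red tdTomato reporter were collected by flow cytometry. For the controls the labels give the tdTomato reporter and no further allele. Ages, the number of animals behind a replicate, the way tissue was dissociated and its duration are not stated in the labels. All groups share the reporter and the sort, and no unsorted or undissociated stomach was analysed here. The replicates are labelled biological with nothing further on their source, so p-values rest on the spread among 6 libraries, which may be partly technical. In such bulk samples fewer cells of a type cannot be told apart from less RNA per cell.

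Immediate early genes are transcribed within minutes of a stimulus from factors already present in the cell, such as serum response factor and CREB downstream of the MAP kinases. Their products include Fos and Jun, which pair to form AP-1, and inhibitors such as Dusp1 and Zfp36 that shut the response down. Heat shock chaperones are induced by Hsf1 when proteins unfold. Both classes are known to be induced while tissues are digested into single cells, which is background here and not a measured cause of these values.

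The noggin transcript followed the labels. Nog was at 1.97, 0.871 and 1.09 FPKM in control replicates 1, 2 and 3 and at 2734, 2289 and 2281 FPKM in the noggin libraries. Parietal cell markers were present in all libraries, with a summed level of 34900 to 41660 FPKM in controls and 34070 to 36030 FPKM in the noggin libraries. Total FPKM over all genes was 595736 to 669124 in controls and 797168 to 1188186 in the noggin libraries. Marker sums given here are therefore not shares of a library. The parietal list includes Gif, the intrinsic factor gene, which in the mouse is grouped with chief cell genes. Gif was at 485 to 729 FPKM in controls and 639 to 1841 FPKM in the noggin libraries, a small part of these sums. The parietal sums cover genes that differed in opposite directions. Esrrg, Slc4a2 and Slc26a7 fell, Atp4a was at 13390 to 16220 FPKM in controls against 5433 to 7619 FPKM, and Car2 was at 1542 to 2021 FPKM against 3454 to 3683 FPKM. Chief cell markers had a higher sum than parietal markers in each library, at 60400 to 111300 FPKM in controls and 130300 to 356000 FPKM in the noggin libraries, led by Pgc and Clps. The sums of mucous neck markers were 2456 to 3362 FPKM against 10760 to 25860 FPKM, of leukocyte markers 1.24 to 2.22 FPKM against 18.3 to 94.8 FPKM, and of mast cell markers 35.5 to 59.1 FPKM against 132 to 195 FPKM. Pit cell sums were 21880 to 26170 FPKM against 23000 to 49630 FPKM, enteroendocrine sums 441 to 2679 FPKM against 1893 to 28600 FPKM and erythroid sums 0.350 to 3.40 FPKM against 5.80 to 63.9 FPKM. Sums of chief, mucous neck, leukocyte, mast cell and erythroid markers were thus higher in each noggin library than in each control. Pit and enteroendocrine sums overlapped between groups. Single genes did not all follow their sum. Of the chief list, Clps was at 22780 to 44840 FPKM in controls and 73510 to 244800 FPKM in the noggin libraries. Pnliprp2 was also higher in each noggin library, from a far lower level. Pgc, at 37490 to 66220 FPKM against 42140 to 110400 FPKM, overlapped between groups, as did Pga5 and Bhlha15. The higher chief sum thus rested mainly on Clps. Muc5ac of the pit list and Kit of the mast cell list were lower in each noggin library. Endothelial (6.37 to 9.01 against 6.80 to 11.7 FPKM) and fibroblast or smooth muscle markers (0.884 to 1.57 against 1.03 to 1.96 FPKM) were low in both groups. Of the endothelial list, Cdh5 was listed at 0 in every library. Noggin replicate 3 stood apart, with 542 tested genes listed at 0 against 19 to 34 in the other libraries.

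Transcripts of this set were abundant in both groups. By mean FPKM over the 6 libraries, 13 of the 38 genes ranked among the 500 highest of 23284 genes, and 20 among the 1000 highest. Hspa8, a constitutive chaperone, ranked 71 and Fos ranked 93, with means of 1220.0 and 1003 FPKM. They were followed by Zfp36 at 665 FPKM, Ier2 at 630.3 FPKM, Atf3 at 586 FPKM and Junb at 581 FPKM. At the other end lay Ctgf at 1.21 FPKM, Egr3 at 0.758 FPKM and Dusp2 at 0.248 FPKM. FPKM is scaled by transcript length, but the annotation behind that scaling is not given, so levels and ranks of different genes compare only roughly. The level of Hspa8 is also uncertain, since much of its sequence occurs in other annotated genes. Noggin libraries had higher total FPKM than controls, which bears on means over all 6 libraries. Neighbours such as Atf3 and Junb lay closer to each other than their own spread over libraries.

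**Figure D1:**
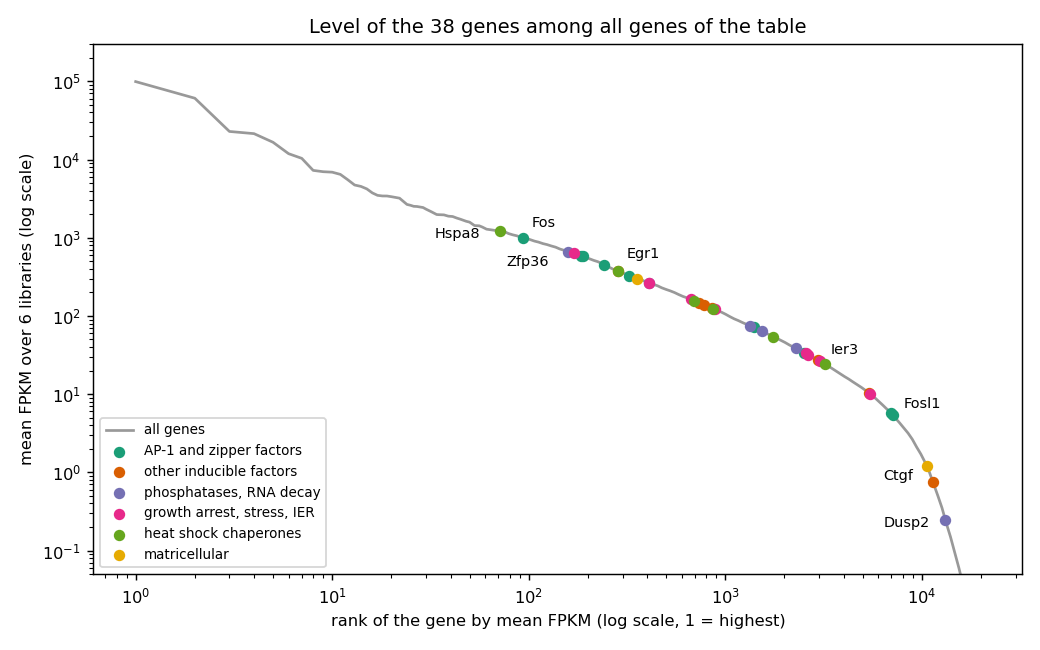
Mean FPKM over 6 libraries (log scale) against the rank of each gene (log scale); the grey line is all genes of the table and points are the 38 genes, coloured by role. Hspa8 and Fos lie at ranks 71 and 93, and Dusp2 is the lowest point at 0.248 FPKM.

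Between groups, 1 of the 37 tested genes was called, Ier3, which rose in noggin libraries. A gene was called at an adjusted p under 0.05 in limma, a moderated linear model fitted to log2(FPKM + 1) of all tested genes. By this rule 2.44% of all tested genes were called, 1.75% higher and 0.695% lower. Without adjustment, 6 genes of the set had a p under 0.05 (Ier3, Ier5, Gadd45a, Btg1, Fosl1 and Jun), as did 26.7% of all tested genes, or 2839 of 10644, so this count is not above the background. The log2 fold change, noggin against control, was positive for 23 genes and negative for 14, with a median of 0.03 against -0.03 over all tested genes. It ran from -0.75 for Hspa1a to 1.38 for Ier3 and was under 0.5 in size for 24 of the 37 genes (64.9%, against 50.3% of all tested genes). Of the 23 genes with a positive value, 19 turned negative once libraries were rescaled to the same total FPKM, which moved the median of all tested genes to -0.63, and 15 with quantile normalization. Calls over all tested genes were 186 higher and 74 lower, 130 higher and 820 lower after rescaling, and 243 higher and 231 lower with quantile normalization. The 95% interval lay within 1 log2 unit of 0 for 17 genes of the set (45.9%, against 26.9% of all tested genes). For the other 20 genes the interval reached past 1 log2 unit. Groups did not overlap for 8 genes of the set (21.6%), against 38.3% of all tested genes. Of these 8, 5 were higher in noggin libraries (20.3% of all tested genes were) and 3 were lower (18% were).

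**Figure D2:**
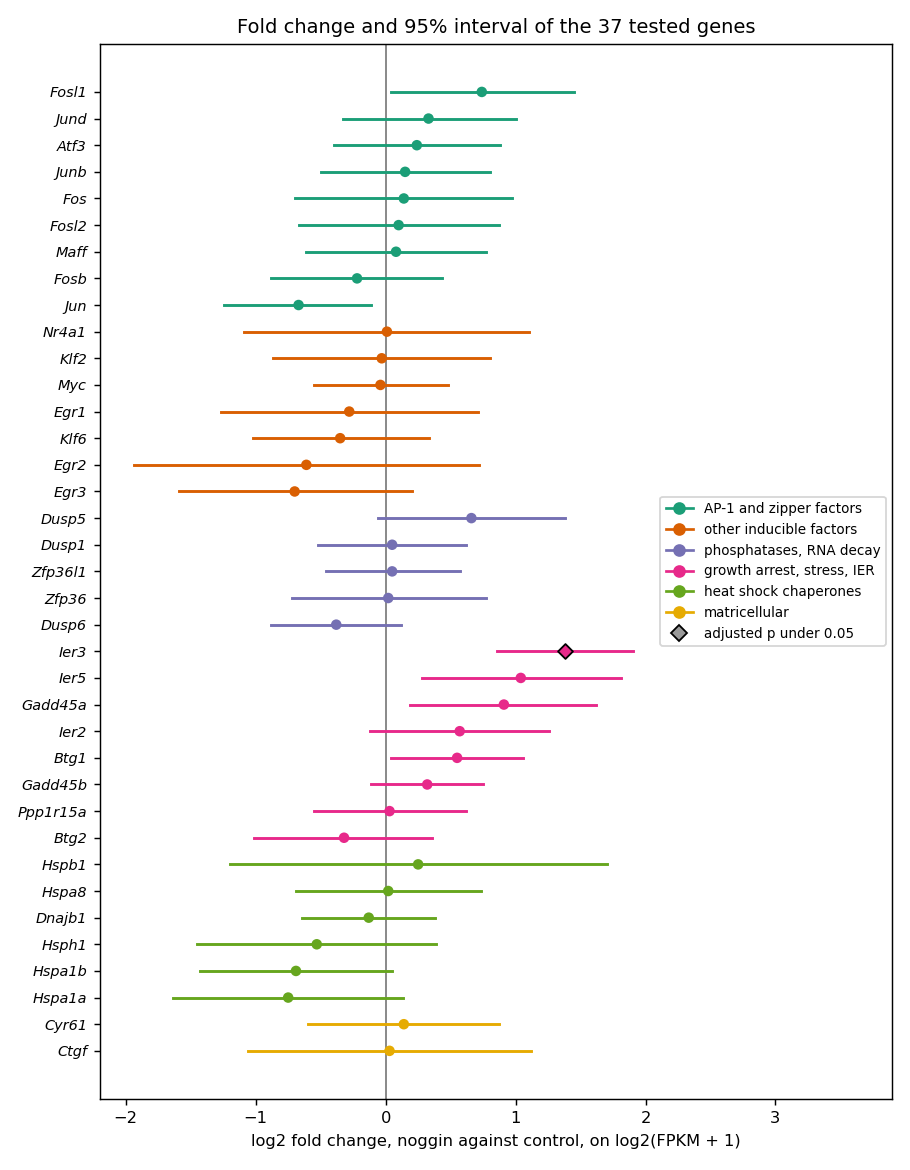
Log2 fold change on log2(FPKM + 1), noggin against control, with its 95% interval from limma, for the 37 tested genes grouped by role; the outlined diamond marks an adjusted p under 0.05. Ier3 at 1.38 is the only diamond, and most intervals of the AP-1 factors cross 0.

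The 19 genes given below in every library follow a rule: called genes, the 2 of highest mean in each role, the 2 of largest fold change among those without overlap in each role, and the pair Hspa1a and Hspa1b. Any other gene of the set named below was chosen after its values were seen.

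Sequences upstream of 3 abundant genes, Fos, Dusp1 and Btg2, are shown as examples with a match to a searched motif. Promoter windows of RefSeq (GRCm38.p6, 250 bases before and 50 after the start) were matched for 31 of the 38 genes. The others were Fosl1, Egr1, Egr3, Myc, Ier2, Hspa8 and Ctgf. The bases before the start, up to the first base of any GENCODE exon, are printed 5′ to 3′ on the strand of the gene. Capitals mark TATAAA in Fos (chr12:85473640-85473889, plus strand) and the cAMP response element TGACGTCA in Dusp1 (chr17:26508520-26508722, minus strand) and Btg2 (chr1:134079156-134079405, minus strand).
Fos: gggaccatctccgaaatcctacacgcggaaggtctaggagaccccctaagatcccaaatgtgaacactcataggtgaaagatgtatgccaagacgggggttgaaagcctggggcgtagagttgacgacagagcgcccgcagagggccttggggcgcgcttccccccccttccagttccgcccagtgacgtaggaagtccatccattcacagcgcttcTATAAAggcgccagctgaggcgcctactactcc
Dusp1: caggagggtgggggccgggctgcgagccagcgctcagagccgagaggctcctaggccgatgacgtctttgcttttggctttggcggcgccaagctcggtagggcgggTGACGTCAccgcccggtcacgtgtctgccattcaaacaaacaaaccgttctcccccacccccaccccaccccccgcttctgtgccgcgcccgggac
Btg2: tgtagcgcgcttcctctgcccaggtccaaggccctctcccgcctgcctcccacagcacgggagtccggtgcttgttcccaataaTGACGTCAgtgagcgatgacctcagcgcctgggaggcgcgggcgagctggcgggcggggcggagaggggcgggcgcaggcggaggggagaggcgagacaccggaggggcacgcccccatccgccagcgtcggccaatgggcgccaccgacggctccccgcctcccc
Searched on both strands of the whole windows, TGACGTCA was found for 4 of 31 genes (Maff, Dusp1, Btg2 and Ppp1r15a) and for 2.03% of the 27025 genes with a window. The EGR motif GCGGGGGCG was found for 6 (3.31% of all genes), a CArG box, the site of serum response factor, for 3 (Egr2, Dusp5 and Zfp36, 1.81% of all) and TATAAA for 7 (15.7% of all). The AP-1 motif TGANTCA was found for 1 (Zfp36l1, 8.97% of all) and the NF-kB motif (GGG, any 2 bases, TTTCC) for 1 (Dusp5, 1.89% of all), where it overlaps a CArG box. These are matches of exact letters within the windows, so near matches and elements further upstream were not counted, and binding was not measured.

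AP-1 factors did not pass the test in any of 9 cases, with 2 at an unadjusted p under 0.05 in limma (26.7% of all tested genes were) and a median log2 fold change of 0.14. Fos, the prototype of the family (chromosome 12, 85473890 to 85477273, GRCm38, plus strand), was at 1161, 816 and 817 FPKM in controls and at 594, 1317 and 1316 FPKM in the noggin libraries. Noggin replicate 1 lay below all controls and the other two noggin libraries above them. The log2 fold change of Fos was 0.14 (SE 0.359, adjusted p by limma = 0.825). Atf3, a stress-induced factor that pairs with Jun proteins, had the same order of noggin libraries, at 615, 491 and 483 FPKM in controls and 425, 773 and 728 FPKM. Its log2 fold change was 0.24 (SE 0.276, adjusted p by limma = 0.602).

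Jun and Fosl1 were the AP-1 genes whose groups did not overlap. Jun, the partner of Fos, was below each control in each noggin library, at 506, 308 and 404 FPKM in controls and 218, 234 and 301 FPKM in the noggin libraries. Its log2 fold change of -0.67 did not pass (SE 0.242, adjusted p by limma = 0.137). Jun was called lower by limma after rescaling (-1.39, adjusted p = 0.0351) and with quantile normalization (-1.28, adjusted p = 0.0450). With a trend on transcript length removed, Jun was at -0.28 (adjusted p = 0.529). The GENCODE model of Jun has an antisense gene, Junos, over 183 of its 3140 windows of 50 bases, the read length. Fosl1, an AP-1 factor of later induction, lay above each control from a low level, at 4.998, 3.44 and 3.05 FPKM in controls and 5.96, 7.76 and 7.33 FPKM in the noggin libraries (limma log2 fold change 0.74 ± 0.305 SE, adjusted p = 0.171). Of its windows, 58.9% are shared with Ccdc85b on the opposite strand, and no source states that strand was kept, so the genes cannot be told apart there. The other AP-1 genes, Fosb, Fosl2, Junb, Jund and Maff, overlapped between groups. Their log2 fold changes ran from -0.22 for Fosb to 0.33 for Jund. Jund shares 48.3% of its windows with the opposite-strand model Gm11175.

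Of the other inducible transcription factors 0 of 7 were called by limma, 0 had an unadjusted p under 0.05, and the median log2 fold change was -0.28. Egr1, a zinc finger factor induced by serum response factor, was at 482, 338 and 366 FPKM in controls and at 158, 515 and 408 FPKM in the noggin libraries. Nr4a1, an orphan nuclear receptor, was at 208, 105 and 114 FPKM in controls and 64.3, 204 and 193 FPKM in the noggin libraries. In both genes noggin replicate 1 was the lowest of 6 and the other noggin libraries lay within or near the control range. The log2 fold changes were -0.28 for Egr1 (SE 0.424, adjusted p by limma = 0.695) and 0.01 for Nr4a1 (SE 0.472, adjusted p = 0.994). Klf6 had the same low library, at 76.2 FPKM in noggin replicate 1 against 141 to 176 FPKM in controls, while noggin replicates 2 and 3 were at 155 and 146 FPKM. Klf2 spread more among controls, at 221, 89.9 and 88.8 FPKM, than among noggin libraries, at 139, 116 and 103 FPKM. Egr2 was at 4.02, 20.7 and 3.82 FPKM in the noggin libraries and at 9.81 to 12.3 FPKM in controls. Egr3 was listed at 0 in noggin replicates 1 and 3. Without noggin replicate 2, Egr2 was called lower by limma (-1.33, adjusted p = 0.0277) and so was Egr3 (-1.07, adjusted p = 0.0459). In that setting 18.9% of all tested genes were called, and the library left out held the highest noggin value of both genes.

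The feedback genes had 0 of 5 tested members called by limma, 0 at an unadjusted p under 0.05, and a median log2 fold change of 0.05. Zfp36 (chromosome 7, 28376784 to 28380253, minus strand) encodes tristetraprolin, which speeds the decay of AU-rich mRNAs. It was at 769, 571 and 594 FPKM in controls and at 403, 843 and 808 FPKM in the noggin libraries, a limma log2 fold change of 0.02 (± 0.322 SE, adjusted p = 0.968). Dusp1, a nuclear phosphatase of p38 and JNK, was at 336, 220 and 231 FPKM in controls and 223, 335 and 253 FPKM in the noggin libraries (limma log2 fold change 0.05 ± 0.245 SE, adjusted p = 0.910). Both genes overlapped between groups. Dusp6, a cytoplasmic phosphatase of ERK, was the feedback gene without overlap, at 70.8, 75.2 and 68.7 FPKM in controls and 41.2, 62.6 and 63.6 FPKM in the noggin libraries. Its log2 fold change was -0.38 (SE 0.217, adjusted p by limma = 0.290). Dusp5, a nuclear phosphatase of ERK, was at 45.9 to 72.7 FPKM in controls and 60.7, 88.3 and 130 FPKM in the noggin libraries (log2 fold change 0.66, adjusted p = 0.214). Zfp36l1, of the same family as Zfp36, had a log2 fold change of 0.05. Of its windows of 50 bases, 56.9% are shared with other genes, mostly Gm26669 and otherwise Zfp36l1-ps. Dusp2 was at most 0.0835 FPKM in controls and at 0.103, 1.21 and 0 FPKM in the noggin libraries.

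Growth arrest and other immediate early proteins held the called gene. All 8 members were tested: 1 rose, and the other 7 missed the threshold. Their median log2 fold change was 0.56, and for 4 of the 8 each noggin library was above each control, as for 20.3% of all tested genes. Ier3 (chromosome 17, 35821684 to 35822923, plus strand), an inducible regulator of survival and ERK signalling, was at 14.8, 14.0 and 13.5 FPKM in controls and at 40.0, 30.7 and 46.0 FPKM in the noggin libraries. The means were 14.1 ± 0.613 and 38.9 ± 7.72 FPKM (SD, n = 3 each), 2.76 times higher in noggin libraries. Controls lay within 1.09 times of each other and each noggin library was above each control. The log2 fold change was 1.38 (SE 0.223, adjusted p by limma = 0.0330). None of the 1082 windows of 50 bases in the Ier3 transcript occurs in another GENCODE gene.

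The log2 fold change of Ier3 varied little when libraries were left out, while its adjusted p crossed the threshold. Leaving out each library in turn gave log2 fold changes of 1.26 to 1.54. Ier3 was still called without noggin replicate 2 (adjusted p = 0.0162) and without noggin replicate 3 (adjusted p = 0.0349). It was no longer called without control replicates 1, 2 or 3 (adjusted p = 0.161, 0.152 and 0.219) or noggin replicate 1 (adjusted p = 0.0582). In those 4 settings calls fell over the whole table too, to 0.0846%, 0.432%, 0.113% and 0.611% of tested genes. Rescaling to the same total gave 0.70 (adjusted p = 0.0950). Removal of the length trend gave 1.22 (adjusted p = 0.0511). Of the mucous neck markers 5 of 5 rose, of the mast cell markers 4 of 6 rose and 1 fell, and of the enteroendocrine markers 2 of 6 tested rose. Of 12 leukocyte markers 3 were tested and 1 rose, and of the parietal markers, Gif included, 3 of 11 fell. Of the chief markers 0 of 5 tested were called, and of the pit markers 0 of 5. The endothelial, fibroblast or smooth muscle and erythroid lists had 1 tested gene each, with 0 called. The part of these cells in the rise of Ier3 was not tested. Under quantile normalization, 2 genes of the set were called (Ier3 and Jun, where 4.45% of all tested genes were), and after rescaling 1 (Jun, where 8.93% were).

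The upstream sequence of Ier3 (chr17:35821463-35821683, plus strand) is shown as that of the called gene. Its window held none of the motifs searched, so no base is in capitals.
Ier3: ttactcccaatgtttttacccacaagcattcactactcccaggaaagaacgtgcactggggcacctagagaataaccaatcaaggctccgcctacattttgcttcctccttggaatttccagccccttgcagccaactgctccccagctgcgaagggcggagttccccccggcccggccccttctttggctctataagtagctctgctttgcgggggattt
This says only that those letters are not in this window.

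Ier5, a partner of Hsf1 and protein phosphatase 2A, was also higher in each noggin library, at 6.90, 5.74 and 5.48 FPKM in controls and 18.3, 8.65 and 15.2 FPKM. Its log2 fold change of 1.04 did not pass (SE 0.331, adjusted p by limma = 0.114). Without noggin replicate 2 it was called, at 1.34 (adjusted p = 0.0260). In that setting 4 genes of the set were called, Ier3, Ier5, Egr2 and Egr3, and so were 18.9% of all tested genes. Gadd45a, which binds cell cycle and stress kinases, was at 22.4, 19.6 and 21.4 FPKM in controls and 60.3, 42.0 and 26.0 FPKM in the noggin libraries (log2 fold change 0.91, adjusted p = 0.125). It was called without noggin replicate 3 (1.21, adjusted p = 0.0394), where Ier3 was called too and 5.55% of all tested genes were. Btg1, an antiproliferative protein, was at 25.6 to 27.4 FPKM in controls and 30.3, 44.8 and 44.8 FPKM in the noggin libraries (log2 fold change 0.55, adjusted p = 0.164).

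Ier2 and Btg2 were the most abundant genes of this role. Ier2, a nuclear protein of early induction, was at 785, 386 and 403 FPKM in controls and 723, 724 and 761 FPKM in the noggin libraries. The highest value was that of control replicate 1, so the groups overlapped, and the log2 fold change was 0.57 (SE 0.298, adjusted p by limma = 0.257). Btg2, an antiproliferative protein of the same family as Btg1, was at 325, 246 and 292 FPKM in controls and 145, 289 and 282 FPKM in the noggin libraries (limma log2 fold change -0.32 ± 0.295 SE, adjusted p = 0.501). Its low value was again in noggin replicate 1. Gadd45b and Ppp1r15a, the latter a subunit that directs dephosphorylation of eIF2alpha, had log2 fold changes of 0.32 and 0.03 and overlapped between groups.

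**Figure D3:**
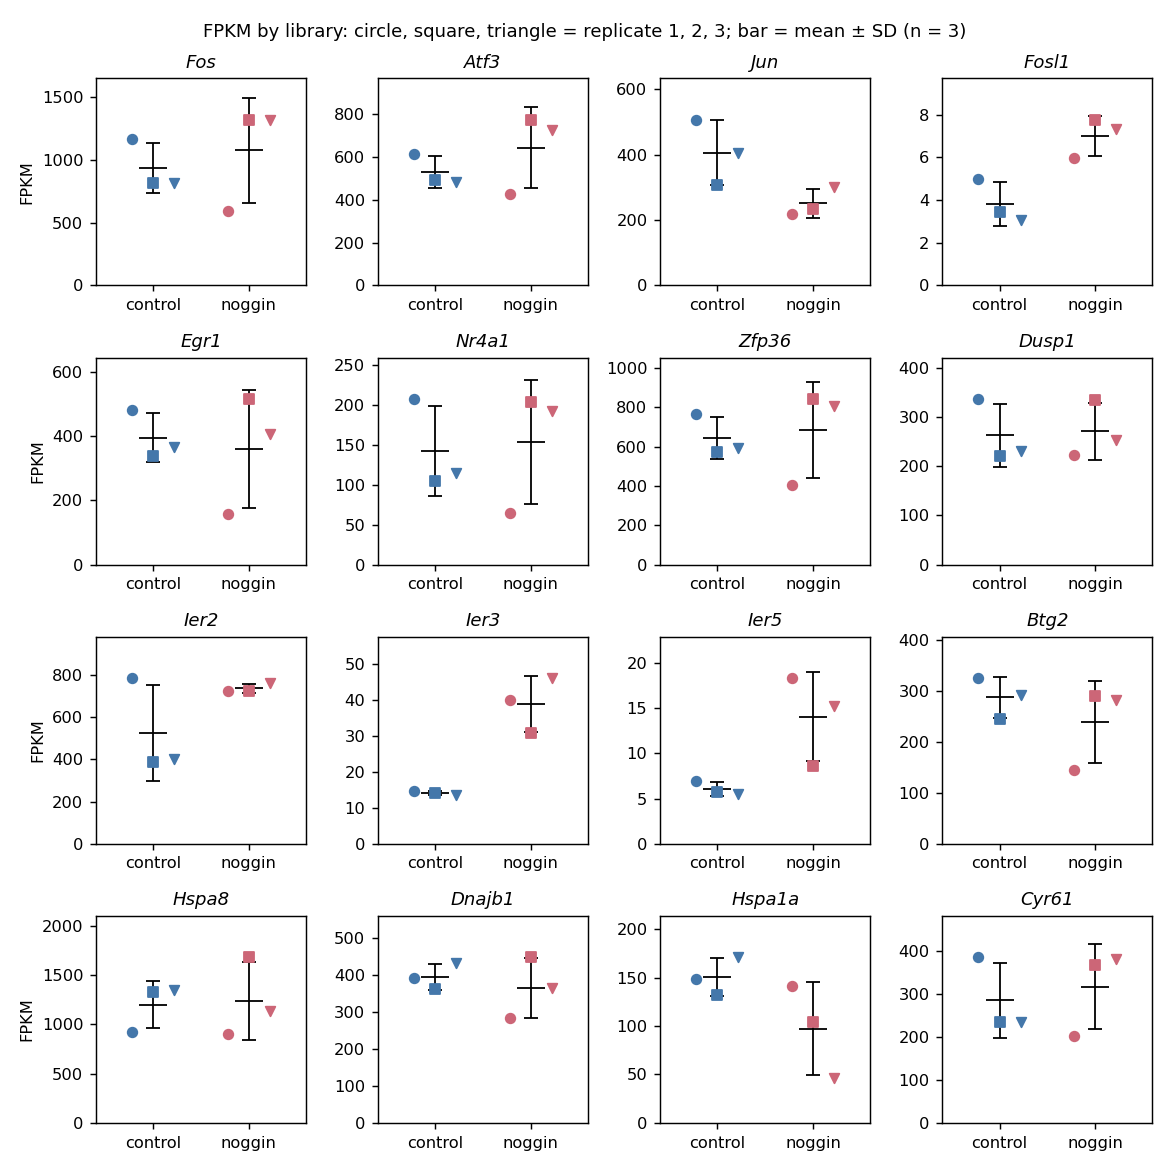
FPKM of 16 genes in each library; circle, square and triangle stand for replicates 1, 2 and 3 and bars for the mean ± SD (n = 3). Ier3 and Ier5 are higher in all noggin libraries and Jun is lower, while in Fos, Egr1, Nr4a1 and Zfp36 noggin replicate 1 lies under every control.

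The heat shock chaperones had 0 of 6 members called by limma, 0 at an unadjusted p under 0.05, and a median log2 fold change of -0.33. Hspa8 was at 924, 1325 and 1353 FPKM in controls and at 903, 1682 and 1132 FPKM in the noggin libraries (limma log2 fold change 0.02 ± 0.307 SE, adjusted p = 0.974). Dnajb1, a co-chaperone of Hsp70 proteins, was at 390.0, 360.1 and 430.3 FPKM in controls and 283, 447 and 363 FPKM in the noggin libraries (limma log2 fold change -0.13 ± 0.220 SE, adjusted p = 0.726). Both overlapped between groups. Of Hspa8, 74.8% of the windows of 50 bases occur in 13 other annotated genes, Gm15459 and Gm26825 among them, so its level is uncertain.

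Hspa1a and Hspa1b, the inducible Hsp70 genes, lie on chromosome 17 at 34969190 to 34972156 and 34956436 to 34959238, both on the minus strand. They share 1716 of the 2918 and 2754 windows of 50 bases in their transcripts, so reads could have been divided between them by the authors' counting. The 250 bases upstream of their starts (chr17:34972157-34972406 and chr17:34959239-34959488) are identical at 247 positions (98.8%). They are shown with capitals at the 3 positions that differ, C44T, T47C and T249G, written as the base in Hspa1a, the position from the 5′ end of the printed sequence, and the base in Hspa1b.
Hspa1a: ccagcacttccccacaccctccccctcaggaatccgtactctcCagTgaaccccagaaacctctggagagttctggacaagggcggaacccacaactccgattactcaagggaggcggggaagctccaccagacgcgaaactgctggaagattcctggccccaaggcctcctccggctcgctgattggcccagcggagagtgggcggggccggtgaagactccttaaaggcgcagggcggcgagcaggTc
Hspa1b: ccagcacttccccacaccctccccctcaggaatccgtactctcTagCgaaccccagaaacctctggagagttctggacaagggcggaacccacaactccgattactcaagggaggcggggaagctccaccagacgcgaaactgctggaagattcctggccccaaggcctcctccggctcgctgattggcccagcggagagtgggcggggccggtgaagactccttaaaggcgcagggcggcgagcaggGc
The full heat shock element (GAA, any 2 bases, TTC, any 2 bases, GAA) was in neither window. Both printed sequences hold GAAGATTC, which matches its first part (GAA, any 2 bases, TTC). Only the full string was searched, so partial or imperfect elements were not counted. Among the 31 genes the full string was in the window of Hsph1 (0.662% of all genes).

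Hspa1a was at 149, 132 and 171 FPKM in controls and at 141, 104 and 46.7 FPKM in the noggin libraries. Hspa1b ran in parallel, at 185, 170 and 214 FPKM in controls and 168, 135 and 70.0 FPKM in the noggin libraries, and its groups did not overlap. The ratio of Hspa1a to Hspa1b was 0.780 to 0.804 in controls and 0.842, 0.776 and 0.667 in noggin libraries. The log2 fold changes were -0.75 for Hspa1a (SE 0.381, adjusted p by limma = 0.241) and -0.69 for Hspa1b (SE 0.319, adjusted p = 0.209). Both were lowest in noggin replicate 3, the library that stood apart, and without it they were at -0.30 and -0.33 (adjusted p = 0.371 and 0.313). Hspb1, a small heat shock protein, was at 35.3 to 58.3 FPKM in controls and 101, 78.0 and 16.2 FPKM in the noggin libraries, on both sides of the control range. It shares 51.6% of its windows of 50 bases with Hsp25-ps1, so its level is uncertain. Over the 6 libraries Hsph1, an exchange factor of Hsp70, was at 12.6 to 33.8 FPKM and overlapped between groups.

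The matricellular genes Cyr61 and Ctgf, targets of YAP and of serum response factor, were not called by limma, and 0 of 2 had an unadjusted p under 0.05. Cyr61 was at 384, 234 and 235 FPKM in controls and at 202, 366 and 380 FPKM in the noggin libraries (limma log2 fold change 0.14 ± 0.316 SE, adjusted p = 0.806). Ctgf was far lower, at 0.950, 1.27 and 0.956 FPKM in controls and at 1.79, 2.30 and 0 FPKM in the noggin libraries (limma log2 fold change 0.03 ± 0.470 SE, adjusted p = 0.972). Both overlapped between groups.

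Across the set, libraries of 1 group differed among themselves. The median SD of log2(FPKM + 1) over the 3 controls was 0.237 for the set and 0.147 for all tested genes. In noggin libraries it was 0.465 and 0.538. Control replicate 1 was the highest control for 26 of the 37 genes (70.3%, against 28.5% of all tested genes), Fos, Jun, Junb, Klf2 and Ier2 among them. Heat shock genes had another order: control replicate 3 was the highest control for all 6, as for 30.1% of all tested genes. Among noggin libraries, replicate 1 was the lowest for 21 genes (56.8%, against 32.9% of all tested genes), and for 16 it was the lowest of all 6 libraries, as for 23.8% of all tested genes. These 16 include Fos, Jun, Atf3, Egr1, Nr4a1, Klf6, Zfp36, Btg2 and Cyr61. Noggin replicate 1 also held the highest Ier5, Gadd45a and Hspb1. The median deviation of the set from the control mean was -0.20 in noggin replicate 1, 0.34 in replicate 2 and 0.22 in replicate 3, on the log2(FPKM + 1) scale. Over all tested genes these medians were -0.08, 0.10 and -0.01. Noggin replicate 1 had the highest sums of mucous neck (25860 FPKM), pit (49630 FPKM), mast cell (195 FPKM) and erythroid markers (63.9 FPKM). Its endothelial (11.7 FPKM) and fibroblast or smooth muscle sums (1.96 FPKM) were also the highest, though low. Its enteroendocrine sum, 1893 FPKM, was the lowest among noggin libraries. The part of these cells in the low values was not tested.

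**Figure D4:**
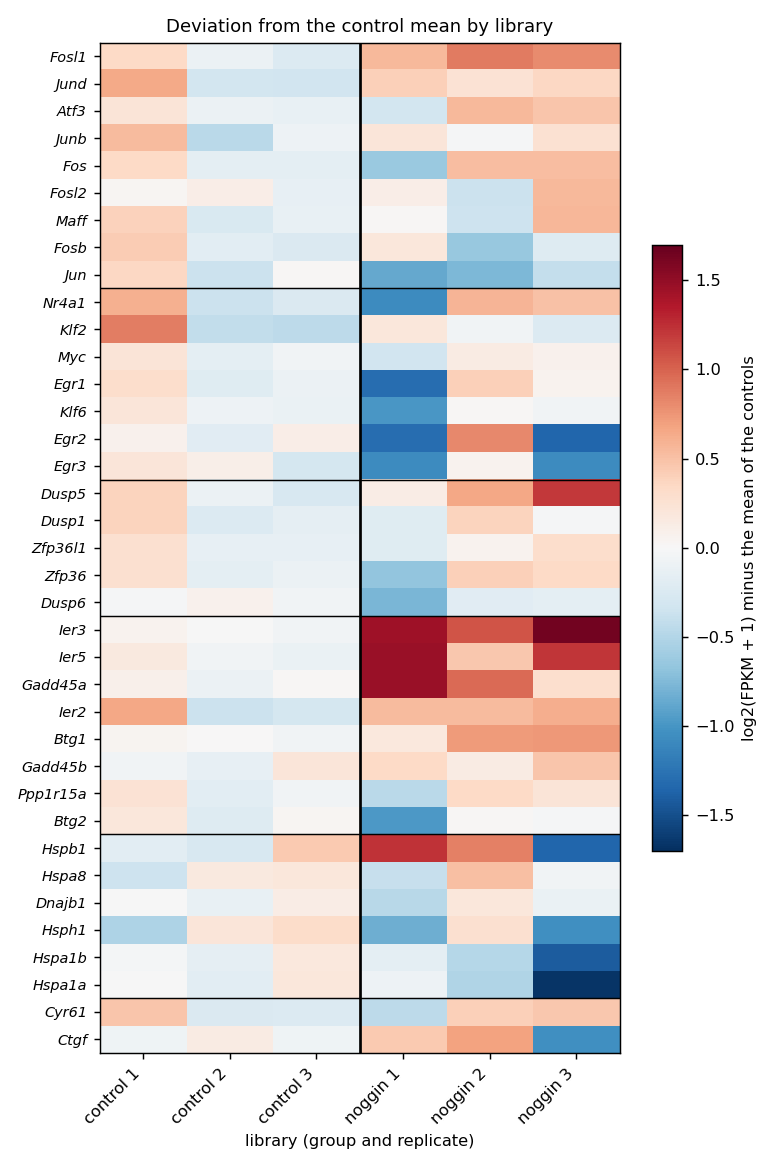
Deviation of log2(FPKM + 1) from the mean of the controls in each library (columns) for the 37 tested genes (rows, grouped by role); red is higher and blue lower. Noggin 1 is blue for Egr1, Nr4a1, Klf6 and Btg2, noggin 3 is blue for Hspa1a and Hspa1b, and Ier3 is red in all 3 noggin libraries.

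Other genes of the pathway were read against the shares over all tested genes, 2.44% called and 26.7% at an unadjusted p under 0.05. Of 30 upstream kinases and transcription factors, such as Srf, Creb1 and Hsf1, 26 were tested, 0 were called by limma and 3 had an unadjusted p under 0.05, with a median log2 fold change of -0.10. Of 41 further immediate early and stress-induced genes 39 were tested, 0 were called and 12 had an unadjusted p under 0.05, with a median of 0.22. Of 29 further cytosolic chaperones and co-chaperones 28 were tested and 1 rose, with 8 at an unadjusted p under 0.05 and a median of 0.02. The called gene was Cryab, a small heat shock protein, at 13.4, 13.3 and 12.9 FPKM in controls and 44.6, 27.9 and 31.9 FPKM in the noggin libraries. Its log2 fold change was 1.31 (SE 0.238, adjusted p by limma = 0.0429).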

How the data were processed

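RNA from tdTomato-sorted parietal cells of 3 control and 3 noggin replicates was sequenced as 50 base single-end reads from SMART-Seq libraries, per the labels' protocols. The authors deposited FPKM per gene and library, with replicates not pooled. The submitters' processing notes name mm10, bcl2fastq and FastQC 0.10.0. For alignment, quantification and annotation, the tool or version is not given in any source used here. Read depth is unknown, so no counting interval is given and a 0 is reported as listed at 0. Groups came from sample titles. Values were tested as log2(FPKM + 1), a scale that understates changes of low genes, for the 10644 genes that reached 1 FPKM in 3 or more libraries. The two-sided test came from limma 3.58.1 (R 4.3.3), with group as the only term and a trend of variance on the mean. Benjamini-Hochberg adjustment ran over all tested genes, with a threshold of 0.05 and 95% intervals from the moderated standard error. The fit was tested on simulated data. Genes given in full were chosen by role, level and overlap as stated in the text. The members and gene lists were chosen with earlier results of these data known. Alternatives were a pseudocount of 0.1, no filter, a filter of 5 FPKM, rescaling to equal totals, quantile normalization, removal of a lowess trend on transcript length, no mean-variance trend, a replicate block, and leaving out each library. Symbols were matched to GENCODE M21 (GRCm38, the build of mm10): 20911 by symbol, 1915 by an older symbol and 458 not. Windows of 50 bases of the longest coding transcript were compared with all GENCODE transcripts on both strands.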

Additional observations from a re-analysis of the deposited data

How the results depend on the processing

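The 260 genes called over the whole table became 111 with a pseudocount of 0.1, 12 with no filter, 950 after rescaling to the same total, 474 with quantile normalization and 83 with no mean-variance trend. Leaving out each library gave 9 to 2012 genes, with the highest count without noggin replicate 2 and the lowest without control replicate 1. Of the set, 1 gene was called in the main analysis, 2 with quantile normalization, and 0 with no filter, the length trend removed or no mean-variance trend. Leaving out each library gave 0 to 4 genes of the set. The cause of these shifts was not tested. In log2 fold change, 13 of the 37 tested genes kept their sign under every alternative run, Ier3, Ier5, Jun, Hspa1a and Hspa1b among them, and 24 changed sign at least once. None of the 24 was called in the main analysis. After rescaling, the sign turned for Fos (-0.58), Fosl2 (-0.52), Junb (-0.57), Jund (-0.38), Atf3 (-0.48), Maff (-0.62), Nr4a1 (-0.70), Dusp1 (-0.66), Dusp5 (-0.05), Zfp36 (-0.69), Zfp36l1 (-0.65), Ier2 (-0.15), Btg1 (-0.15), Gadd45b (-0.39), Ppp1r15a (-0.68), Hspa8 (-0.70), Hspb1 (-0.45), Cyr61 (-0.58) and Ctgf (-0.28). Quantile normalization turned it for Fos (-0.59), Junb (-0.55), Jund (-0.33), Atf3 (-0.51), Maff (-0.14), Nr4a1 (-0.43), Dusp1 (-0.52), Zfp36 (-0.70), Zfp36l1 (-0.19), Ier2 (-0.16), Gadd45b (-0.16), Ppp1r15a (-0.45), Hspa8 (-0.69), Hspb1 (-0.04) and Cyr61 (-0.45). Removal of the length trend turned it for Fosb (0.23), Junb (-0.01), Egr1 (0.18), Klf2 (0.06), Myc (0.04), Zfp36l1 (-0.08), Hspa8 (-0.11) and Dnajb1 (0.21), and the pseudocount of 0.1 for Ctgf (-0.58). With single libraries left out, 17 genes changed sign: Fos (-0.05 to 0.52), Fosl2 (-0.13 to 0.33), Junb (-0.08 to 0.42), Maff (-0.17 to 0.30), Egr1 (-0.62 to 0.23), Nr4a1 (-0.28 to 0.54), Klf2 (-0.25 to 0.40), Myc (-0.13 to 0.10), Dusp1 (-0.12 to 0.24), Zfp36 (-0.16 to 0.37), Zfp36l1 (-0.07 to 0.19), Ppp1r15a (-0.12 to 0.28), Hspa8 (-0.23 to 0.22), Hspb1 (-0.24 to 1.04), Dnajb1 (-0.29 to 0.04), Cyr61 (-0.02 to 0.43) and Ctgf (-0.30 to 0.56).

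Replicates share a number between groups, and the labels do not say whether a number marks a shared source. The correlation of same-numbered deviations from the group means was 0.105, -0.141 and 0.00519 across genes. For differently numbered libraries it ran from -0.129 to 0.12. With 3 libraries per group these values cannot show whether the numbers pair the samples. With the replicate number as a block, 160 genes were called (128 higher, 32 lower) and 0 of the set, and Ier3 had a limma adjusted p of 0.0556. Not every library correlated best with its own number. Since depth is unknown, no counting error can be set beside these values.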
